A study of Mus musculus with 2 samples.

Results

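The 10 genes described here encode secreted inflammatory signals and the enzymes that accompany them in macrophages: Tnf, Il6, Il1a, Il1b, Il12b, Nos2, Ptgs2, Ccl2, Ccl3 and Ccl4. They are 10 of 21887 protein-coding genes in the RefSeq annotation of mouse build GRCm38. Every listed peak whose summit lay within 50 kb of the first or last annotated base of a member was taken. Il1a and Il1b share peaks, as do Ccl3 and Ccl4, so each pair was counted once, which left 8 loci. These held 45 of the 149349 untreated peaks and 105 of the 240661 IL-4 peaks. The lists come from CUT&Tag, in which an antibody brings a Tn5 transposase to chromatin so that DNA beside the antibody's target is tagged and sequenced. The target was PHLPP1, a phosphatase known for acting on the kinase AKT. Cells were primary mouse bone marrow-derived macrophages grown with M-CSF at 20 ng/ml, wild-type according to the series design. 1 library came from untreated cells and 1 from cells given IL-4 at 20 ng/ml for 4 h. The labels name no strain or age and do not say whether animals were pooled. Libraries from PHLPP1-deficient cells, from a control antibody or from input DNA were not used here.

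The members belong to the classical inflammatory programme of macrophages. Microbial products acting through Toll-like receptors activate NF-κB and other factors, which switch on cytokines, chemokines and inducible enzymes within hours. IL-4 drives the opposite pole, alternative activation, through STAT6. TNF, IL-6 and the interleukin-1 proteins act on many cell types through their own receptors, IL-12 acts on T and NK cells, nitric oxide and prostaglandins are small-molecule effectors, and the CCL chemokines draw in monocytes and other leukocytes. A CUT&Tag peak is read as the antibody's target lying near DNA. No control library was used here, so signal from the target was not told apart from other tagged DNA. A peak says nothing about how strongly a gene is transcribed.

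The peaks were few-fragment peaks. In the member windows the number of fragments at a summit ran from 4 to 8 in the untreated list (median 5) and from 3 to 11 in the IL-4 list (median 4). The lowest local background, in fragments, was 0.936 without and 0.643 with IL-4, a ratio of 1.46, so fragment numbers of the 2 libraries are not on 1 scale. The fold over local background has 1 added to fragments and to background. At such low numbers it is therefore scaled by the background only in part. A q of at most 0.05, used below as a stricter threshold, took at least 7 fragments without IL-4 and 6 with it. With 1 library per group there is no replicate check, no difference was tested, and values are given side by side. A peak list cannot check the cell type. Of all protein-coding genes 58.2% had a peak at a gene end (summit at most 1 kb away) in at least 1 list. Of 10 macrophage markers 6 had one, a share near that of all genes, among them Cd68, Spi1 and Cebpb, and Csf1r, Adgre1, Itgam and Lyz2 had none. The counts were 3 of 5 for B cell, 4 of 5 for T cell and 2 of 6 for neutrophil markers.

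**Figure D1:**
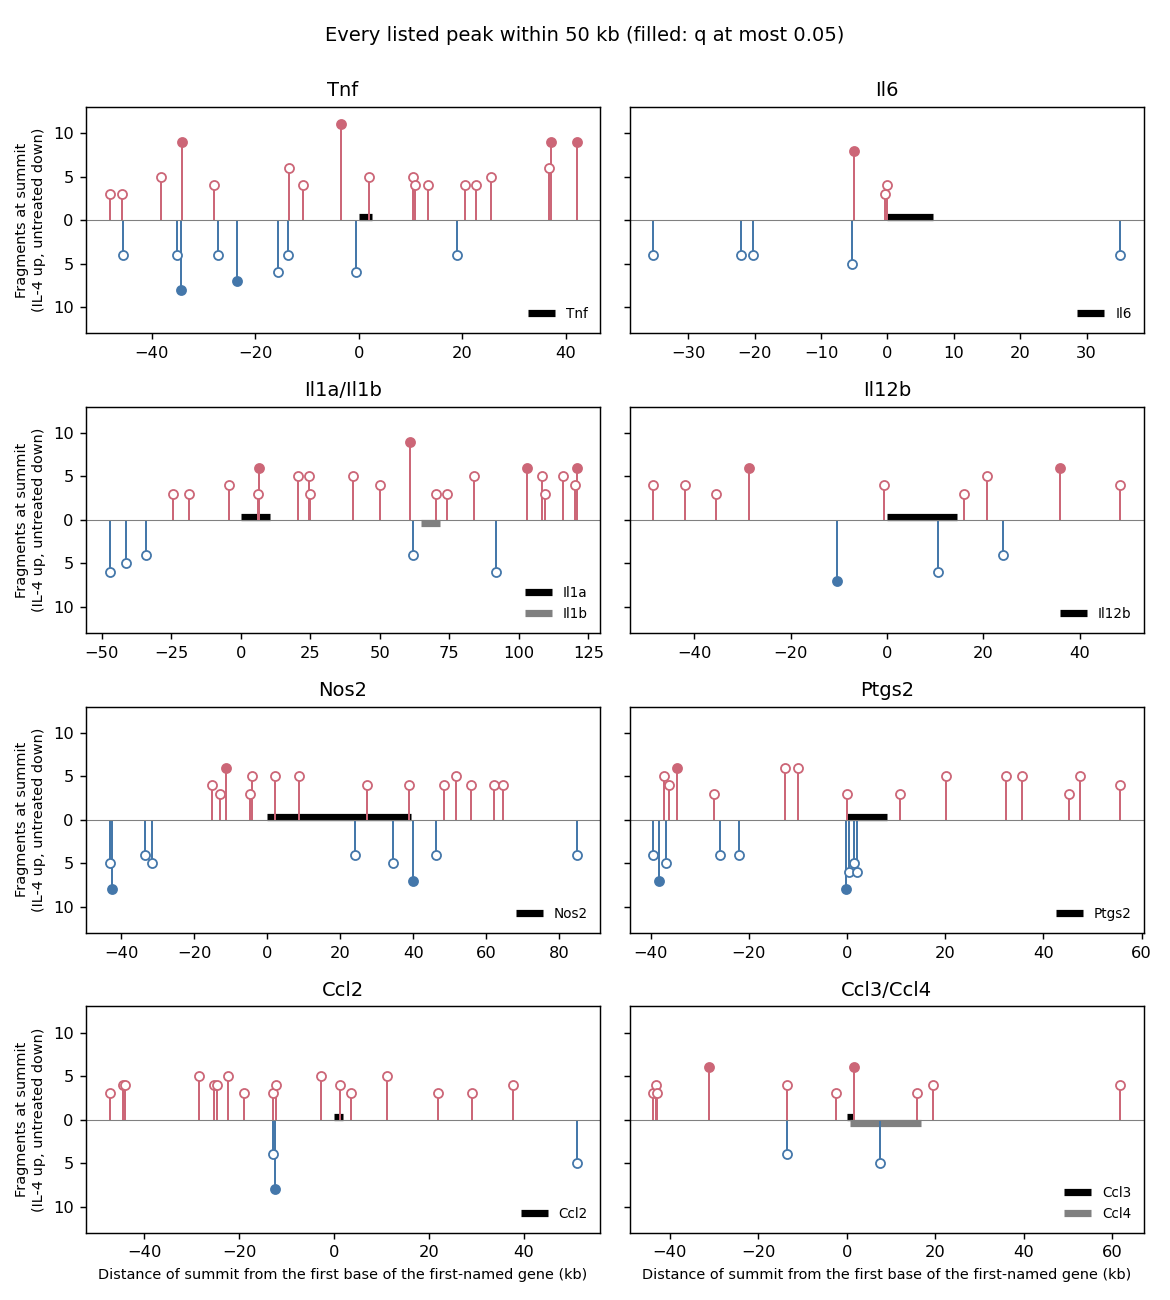
Summits of all listed peaks at the 8 loci, as distance in kb from the first base of the first-named gene (x axis, in the direction of rising coordinates) against fragments at the summit (y axis; IL-4 upward, untreated downward), with genes as thick bars. Filled points have a q of at most 0.05; the highest point is the IL-4 peak of 11 fragments near Tnf, and the Il6 panel has 5 untreated and 3 IL-4 peaks.

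In 3 member promoters a listed peak, strong or weak, reached into the 250 bases before the transcription start, and these sequences are shown. They were copied from RefSeq (GRCm38.p6), which gave a promoter for 7 members and not for Nos2, Ccl2 and Ccl4. Each runs 5′ to 3′ on the gene's strand and ends at the base before the start, and capitals mark bases inside a listed peak. For Ptgs2 (chr1:150099781-150100030, plus strand) the first 46 bases lie in an untreated peak and the last 93 in an IL-4 peak. Those peaks had 8 and 3 fragments and a −log10 q of 2.07 and 0.393. For Il6 (chr5:30012864-30013113, plus strand) the last 121 bases lie in an IL-4 peak of 4 fragments (−log10 q 0.753). For Ccl3 (chr11:83649379-83649628, minus strand) all 250 bases lie in an IL-4 peak.
Ptgs2: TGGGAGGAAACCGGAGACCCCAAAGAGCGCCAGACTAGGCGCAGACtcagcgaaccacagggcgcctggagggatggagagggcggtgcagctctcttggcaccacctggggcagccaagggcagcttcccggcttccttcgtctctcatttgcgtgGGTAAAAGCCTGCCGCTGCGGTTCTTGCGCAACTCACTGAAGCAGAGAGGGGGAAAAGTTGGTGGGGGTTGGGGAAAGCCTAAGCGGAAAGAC
Il6: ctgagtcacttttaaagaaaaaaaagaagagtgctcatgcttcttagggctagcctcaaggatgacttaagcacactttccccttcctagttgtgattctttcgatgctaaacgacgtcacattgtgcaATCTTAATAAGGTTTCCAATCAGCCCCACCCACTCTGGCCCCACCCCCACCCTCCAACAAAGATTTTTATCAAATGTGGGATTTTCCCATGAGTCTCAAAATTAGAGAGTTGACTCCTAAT
Ccl3: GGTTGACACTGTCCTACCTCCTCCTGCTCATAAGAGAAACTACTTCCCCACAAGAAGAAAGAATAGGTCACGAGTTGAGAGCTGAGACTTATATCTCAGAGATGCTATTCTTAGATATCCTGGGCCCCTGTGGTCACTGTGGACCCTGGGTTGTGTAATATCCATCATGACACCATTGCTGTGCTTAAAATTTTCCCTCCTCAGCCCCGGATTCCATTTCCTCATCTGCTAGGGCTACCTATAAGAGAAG

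Counting the window from 250 bases before to 50 after the start, 3 of 7 member promoters overlapped an IL-4 peak and 1 of 7 an untreated peak. Over 21263 promoters of protein-coding genes the shares were 25.9% and 5.98%. Ptgs2 was the member with a peak of each list in its promoter, and those peaks did not overlap each other.

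Promoter motifs were counted in the 250 bases before the start, on both strands. The NF-κB pattern was found in 1 of 7 member promoters, that of Il6, and in 19.6% of all promoters. The Il6 promoter held it as GGGATTTTCC from position -44 to -35 (the start counted as 0) and, overlapping it on the other strand, as GGATTTTCCC from -43 to -34. Both lie inside the IL-4 peak, which ran from -121 to 118. GAGGAA, the core bound by the myeloid factor PU.1, stood in 5 of 7 member promoters (Ptgs2, Il1a, Il12b, Ccl3 and Tnf) against 22.2% of all. TATAAA, the TATA box, stood in 3 of 7 (Il1a, Il1b and Tnf) against 11.6%, and TGANTCA, the AP-1 pattern, in 2 of 7 (Il1a and Il6) against 6.13%. The STAT6 pattern and TTCNNNGAA, the pattern of other STAT factors, were in none of the 7, against 5.39% and 6.58% of all. No match of one of these motifs overlapped a match of another in the member promoters. A match describes letters in the window and is not evidence of a bound factor.

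Across the 8 loci the IL-4 list held more peaks than the untreated list at 7 and fewer at 1, Il6. With peaks of q at most 0.05 the order was the other way at 4 of them: Nos2 and Ptgs2 (2 untreated and 1 IL-4 peak each), Ccl2 (1 and 0) and Il6 (0 and 1). Of the 10 genes taken singly 9 had more IL-4 peaks, against 85.1% of all protein-coding genes, so a surplus of this kind was the common state in a list 1.61 times as long. A ratio of at least 2 (with 1 added to each number) was reached at 4 of 8 loci and for 6 of 10 genes, against 41.1% of all genes. The IL-4 list contributed 105 of the 150 peaks, or 70.0% (exact 95% binomial interval 62.0 to 77.2), where it made up 61.7% of all listed peaks. That interval covers counting error only and takes neighbouring peaks as independent. The weakest listed peaks had 4 fragments without IL-4 and 3 with it, and 28 of the 105 IL-4 peaks had 3. Counting peaks of at least 4 fragments, the share was 63.1% (53.9 to 71.7), where the IL-4 list made up 52.2%. Each locus then kept its order. With the IL-4 list reduced to its strongest peaks, as many as in the untreated list, the share was 60.5% (50.9 to 69.6), where equal numbers of peaks came from each list.

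The median log2 ratio of IL-4 to untreated peaks (1 added to each) was 1.12 over the 8 loci, with a range of -0.58 to 2.17, and 0.81 over all protein-coding genes, whose quartiles were 0.32 and 1.26. 5 of the 8 loci lay above the median of all genes. The loci held a median of 5 untreated and 14 IL-4 peaks, against 7 and 14 for all genes. Taken singly, the 10 genes had medians of 3 and 12. Some loci join neighbouring genes, so the single genes are the like comparison with all genes. On that count the median window of the members held fewer peaks of both lists.

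**Figure D2:**
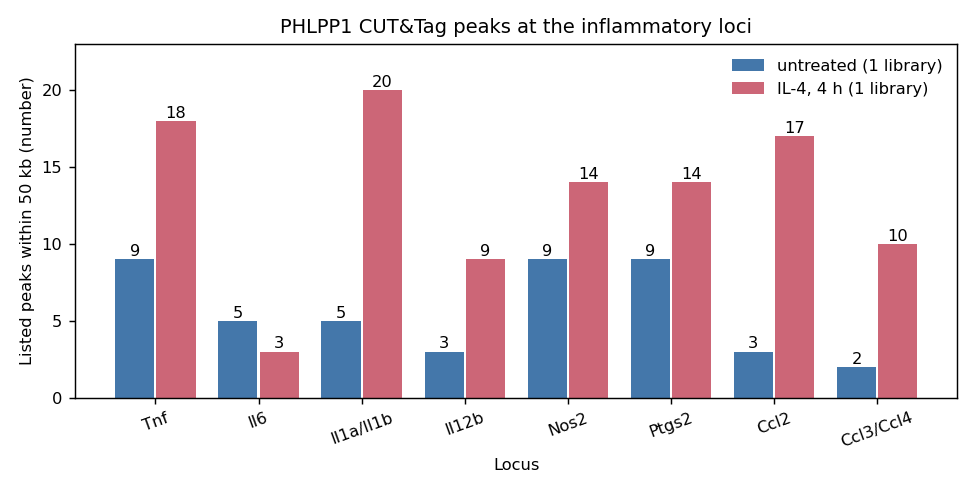
Number of listed peaks with a summit within 50 kb of a member (y axis) at each locus (x axis), for the untreated library and the IL-4 library. The IL-4 bar is the taller at every locus but Il6, with 20 against 5 at Il1a/Il1b and 17 against 3 at Ccl2; there are no error bars because each group has 1 library.

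**Figure D3:**
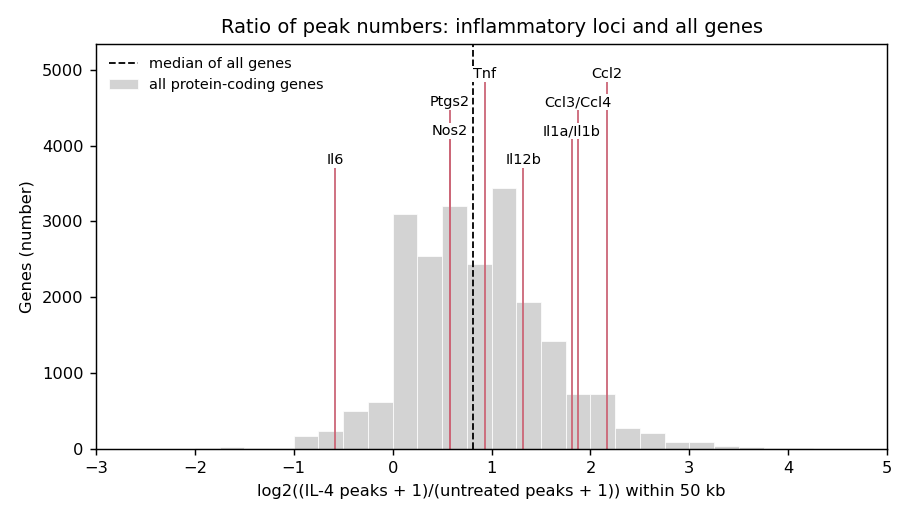
Histogram of the log2 ratio of peak numbers over 21887 protein-coding genes (grey bars, number of genes), with the 8 loci as vertical lines and the median of all genes, 0.81, dashed. Il6 lies at -0.58 and Ccl2 at 2.17; Nos2 and Ptgs2 share the value 0.58.

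Tnf encodes tumour necrosis factor and lies on chromosome 17 from 35199367 to 35202007, on the minus strand, among 8 other protein-coding genes whose ends or bodies reach into the window. Its window held 9 untreated and 18 IL-4 peaks. The local background under the IL-4 peaks was also raised here, with a median of 0.932 fragments, where at the other 7 loci it was 0.643. Of the IL-4 peaks 9 had their summit within 1 kb of an end of another gene and 1 within 1 kb of an end of Tnf. In the untreated list these numbers were 4 and 1.

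At Tnf itself the peaks were weak and lay at opposite ends of the gene. The IL-4 peak, from 35201159 to 35201389, had its summit 689 bp inside the gene from the start, with 5 fragments and a −log10 q of 1.26. The untreated peak, from 35198837 to 35198985, lay 468 bp past the 3′ end with 6 fragments and a −log10 q of 1.11. Neither reached a q of 0.05, and they do not compare the same site.

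The strongest peak of any member window lay next to Tnf but in Ltb, which encodes lymphotoxin β, a membrane cytokine of the same family. This IL-4 peak, from 35195584 to 35196094, had 11 fragments (exact Poisson 95% interval 5.49 to 19.7), a fold of 6.25 over its local background and a −log10 q of 4.99531, just under 5. Its summit was 321 bp from an end of Ltb and 3383 bp past the 3′ end of Tnf, and the nearest untreated summit was 2915 bp away. The IL-4 list as a whole held 832 peaks of at least 11 fragments. Other IL-4 peaks past q 0.05 in this window lay at Nfkbil1 (9 fragments, fold 4.50), at Ddx39b, an RNA helicase gene (9 fragments, fold 4.73), and at Prrc2a (9 fragments, fold 4.14).

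The site at Prrc2a held the single overlapping pair of the member windows in which both peaks passed q 0.05. The untreated peak there, from 35164912 to 35165128, had 8 fragments and a fold of 4.65, and it lay within the IL-4 peak from 35164507 to 35165473, with the summits 175 bp apart. The folds were thus 4.65 without and 4.14 with IL-4. A weaker pair overlapped at Lst1, with 4 untreated and 6 IL-4 fragments. The other untreated peak past q 0.05 lay in Aif1, a gene of macrophages and microglia, with 7 fragments (fold 4.13).

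Il6 encodes interleukin 6 and lies on chromosome 5 from 30013114 to 30019975, plus strand. It was the member with fewer IL-4 peaks (3) than untreated peaks (5) within 50 kb, a state shared by 7.20% of all genes. A log2 ratio as low as its -0.58 was found for 1.88% of genes. The untreated peaks were weak and scattered: 4 had 4 fragments and 1 had 5, and the nearest summit lay 5372 bp before the start. The 3 IL-4 peaks lay at positions -4987, -404 and 14 from the start. Within 10 kb the order was the reverse, with 3 IL-4 peaks and 1 untreated peak.

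The strongest Il6 peak was the one at -4987, from 30008010 to 30008244, with 8 fragments (3.45 to 15.8), a fold of 5.48 and a −log10 q of 3.40. The untreated list had its 5-fragment peak (fold 3.10) at position -5372, with summits 385 bp apart and no overlap. The IL-4 peak across the start, from 30012993 to 30013232, had 4 fragments and a −log10 q of 0.753, and that at -404 had 3 fragments and 0.393. These last values are near the floor of the list, whose weakest peaks have 3 fragments.

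Il1a and Il1b encode the interleukin-1 α and β proteins and lie on chromosome 2, minus strand, from 129299609 to 129310186 and from 129364569 to 129371164, with 54382 bp between them. The joint window held 5 untreated and 20 IL-4 peaks, an IL-4 share of 80.0% (59.3 to 93.2). Taken singly, Il1b had 2 untreated and 15 IL-4 peaks, a log2 ratio of 2.42 that 97.7% of genes did not exceed, and Il1a had 3 and 10. No peak of either list had its summit within 1 kb of an end of these genes, a state of 41.8% of all genes, and the nearest was an IL-4 peak of 3 fragments 1155 bp inside Il1b from its start.

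The placement of the peaks along the interleukin-1 locus is given for each list, and a difference was not tested. Of the 20 IL-4 summits 9 lay between the outer ends of the pair, 3 of them inside a member, 8 lay beyond the start of Il1b and 3 beyond the 3′ end of Il1a. Of the 5 untreated summits 3 lay beyond the 3′ end of Il1a, 1 between the outer ends and 1 beyond the start of Il1b. The strongest, from 129360384 to 129361015, was 4068 bp past the 3′ end of Il1b, with 9 fragments (4.12 to 17.1), a fold of 6.09 and a −log10 q of 4.35. The closest untreated summit, of a peak with 4 fragments, lay 1018 bp from it. The other 3 IL-4 peaks past q 0.05 had 6 fragments each and lay inside Il1a, at 4051 bp from its start, and at 31523 and 49203 bp upstream of Il1b. No untreated peak here passed that threshold, and the highest had 6 fragments.

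Il12b encodes the p40 subunit shared by IL-12 and IL-23 and lies on chromosome 11 from 44400063 to 44414677, plus strand. Its window held 3 untreated and 9 IL-4 peaks. The untreated peak past q 0.05, from 44389584 to 44389768, lay 10385 bp upstream of the start with 7 fragments and a fold of 4.13. IL-4 peaks past that threshold lay 28554 bp upstream and 21223 bp past the 3′ end, with 6 fragments each (fold 4.26). The nearest IL-4 peak to the start lay 705 bp upstream with 4 fragments, and no peaks of the 2 lists overlapped in this window.

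The genes of the 2 inducible enzymes, Nos2 and Ptgs2, were the members with an untreated gene-end peak past q 0.05. Nos2 encodes the inducible nitric oxide synthase and lies on chromosome 11 from 78920787 to 78960226. Its strand was not given, so its ends are named by coordinate and neither is called the start. Nos2 had 9 untreated and 14 IL-4 peaks, an IL-4 share of 60.9% (38.5 to 80.3). The untreated peak from 78960553 to 78960699 lay 389 bp beyond the gene's last base with 7 fragments (2.81 to 14.4), a fold of 3.95 and a −log10 q of 1.57. The IL-4 list had a peak of 4 fragments (fold 3.04) 693 bp inside the same end, with the summits 1082 bp apart. Another untreated peak of 8 fragments lay 42700 bp before the gene's first base. The IL-4 peak past q 0.05 lay 11253 bp before it, with 6 fragments. IL-4 summits inside the gene numbered 4 and untreated ones 2.

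Ptgs2 encodes cyclooxygenase 2, the inducible enzyme of prostaglandin synthesis, and lies on chromosome 1 from 150100031 to 150108234, plus strand, with no other protein-coding gene within 50 kb. Its window also held 9 untreated and 14 IL-4 peaks. Around its start the untreated list had the more and the stronger peaks. Untreated summits lay at -283 with 8 fragments (3.45 to 15.8; fold 4.40, −log10 q 2.07), at 354 with 6, at 1343 with 5 and at 2098 with 6. The IL-4 list had 1 peak there, at -25, with 3 fragments (0.619 to 8.77; fold 2.43, −log10 q 0.393). Its interval overlaps that of the untreated peak at -283. The median background under the untreated peaks of this window was 1.09 fragments, where the lowest in that list was 0.936. Within 10 kb the untreated list had 4 peaks and the IL-4 list 3. Ptgs2 was the locus where the 10 kb window held fewer IL-4 than untreated peaks.

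Beyond the start of Ptgs2 the picture differed by side. All 7 IL-4 summits past the gene's last base stood without an untreated counterpart, since the untreated list had none on that side. Upstream, a stretch chosen after its values were seen, 34 to 40 kb before the start, held 3 untreated and 3 IL-4 peaks within 4868 bp. It included the untreated peak at -38310 (7 fragments, −log10 q 1.42) and the IL-4 peak at -34545 (6 fragments, 1.84). None of these 6 peaks overlapped a peak of the other list.

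Among the chemokine genes, Ccl2, which encodes the monocyte attractant MCP-1, lies on chromosome 11 from 82035577 to 82037452, with Ccl7 and Ccl11 of the same cluster in its window. It had 3 untreated and 17 IL-4 peaks, an IL-4 share of 85.0% (62.1 to 96.8), the highest of the 8 loci. A log2 ratio of 2.17 was not exceeded by 96.1% of genes. All 17 IL-4 peaks were weak, with 3 to 5 fragments, and none passed q 0.05. The peak past that threshold was untreated, from 82022991 to 82023467, 12565 bp before the gene's first base with 8 fragments (fold 4.42). At q of at most 0.05 the locus therefore had 1 untreated and 0 IL-4 peaks, and the order was turned.

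That Ccl2 site was also one where the lists met. An IL-4 peak of 4 fragments (fold 3.04) overlapped the untreated peak of 8, with summits 375 bp apart, and beside it an IL-4 peak of 3 fragments overlapped an untreated peak of 4, with summits 37 bp apart. Of the 17 IL-4 summits, 11 lay before the gene's first base, 1 inside it at 654 bp from its end with 4 fragments, and 5 after it. Of these 5, 1 lay at Ccl7 (5 fragments) and 1 at Ccl11 (3 fragments).

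Ccl3 and Ccl4, which encode the chemokines MIP-1α and MIP-1β, lie side by side on chromosome 11 from 83647843 to 83649378 and from 83648624 to 83664683. The extent of Ccl4 in the gene table pools a curated and a predicted transcript. The annotated extents overlap by 755 bp, so a peak at the start of Ccl3 also lies within 1 kb of an annotated end of Ccl4. The joint window held 2 untreated and 10 IL-4 peaks. The IL-4 peak over the Ccl3 promoter, from 83648858 to 83649754, was wide, at 897 bp, with its summit 191 bp upstream of the Ccl3 start. It had 6 fragments (2.20 to 13.1), a fold of 4.18 and a −log10 q of 1.84. It was the only member gene-end peak of the IL-4 list with a q of at most 0.05, and the nearest untreated summit was 5828 bp away.

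A second IL-4 peak past q 0.05 lay 31044 bp past the 3′ end of Ccl3, a gene of the minus strand, with 6 fragments (fold 4.26). Ccl4 also had a gene-end peak of its own in the IL-4 list, of 3 fragments, 957 bp from its last base. The 2 untreated peaks had 4 and 5 fragments. That of 4, 13545 bp past the 3′ end of Ccl3, was overlapped by an IL-4 peak of 4 fragments, with folds of 2.58 and 2.96 and summits 72 bp apart.

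By class of gene end, counting summits at most 1 kb from either end, 5 of the 10 genes had a peak with IL-4 alone (Il6, Il12b, Ccl2, Ccl3 and Ccl4), against 35.5% of all protein-coding genes. Tnf, Nos2 and Ptgs2 had a peak in both lists, 3 of 10 against 13.8%. None had a peak in the untreated cells alone, against 8.93%, and Il1a and Il1b had none in either list, against 41.8%. With peaks of q at most 0.05, Ccl3 and Ccl4 had a peak with IL-4 alone, which they share (2 of 10, against 16.8%). With Ccl4 counted by its last base alone, a setting added after the data were seen, this was 1 of 10. Ptgs2 and Nos2 then had an untreated peak only (2 of 10, against 2.52%), the other 6 had none (against 79.2%), and 0 of 10 had a peak in both lists (against 1.50%). Within 500 bp of an end, 2 of 10 genes had a peak with IL-4 alone, against 29.7% of all genes, and 2 of 10 an untreated peak only, against 6.47%. There 1 of 10 had a peak in both lists (against 6.86%) and 5 of 10 had none (against 56.9%).

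The stricter threshold left 8 of 45 untreated peaks (17.8%, Wilson 95% interval 9.29 to 31.3) and 15 of 105 IL-4 peaks (14.3%, 8.85 to 22.2) in the member windows, against 14.6% and 12.5% of the whole lists. These shares stood near those of the lists. No member window held a peak with a −log10 q of at least 5, a level that 141 untreated and 799 IL-4 peaks reached elsewhere. Overlap was likewise near that of the lists: 5 of 105 IL-4 peaks (4.76%, 2.05 to 10.7) shared bases with the untreated list, against 5.42%, and 5 of 45 untreated peaks (11.1%, 4.84 to 23.5) shared bases with the IL-4 list, against 8.73%. The 5 pairs lay at Tnf (2), Ccl2 (2) and Ccl3/Ccl4 (1), and none lay within 10 kb of a member.

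**Figure D4:**
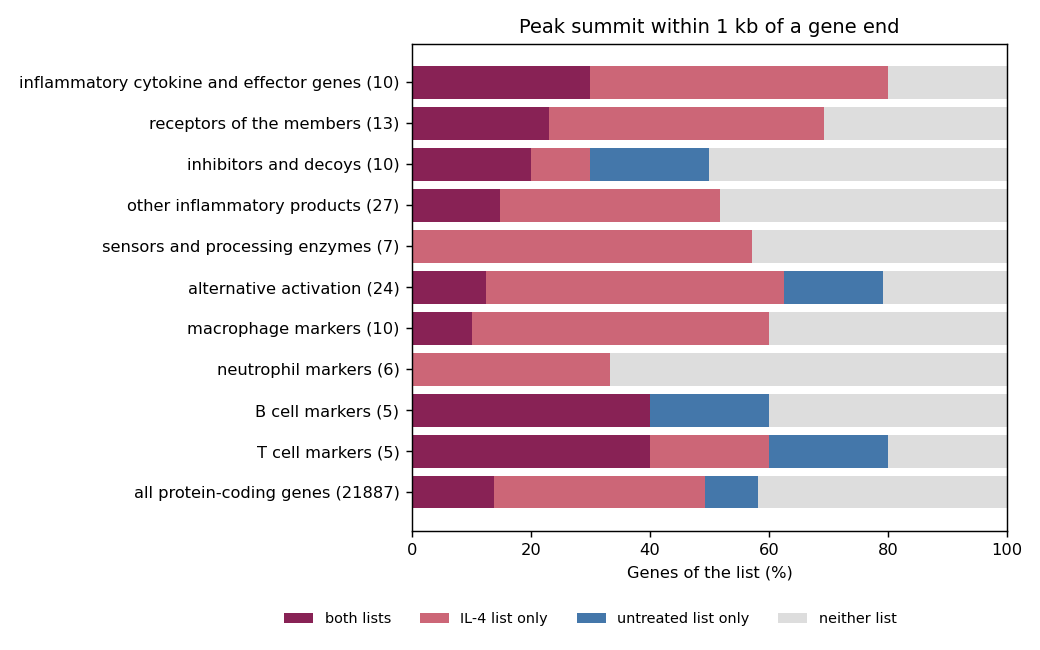
Share of the genes of each list (x axis, percent; number of genes in brackets) by class of gene end: a peak at most 1 kb away in both lists, with IL-4 alone, in untreated cells alone, or none. The inflammatory genes stand at 3, 5, 0 and 2 of 10, and all protein-coding genes at 13.8%, 35.5%, 8.93% and 41.8%.

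Genes that act with the members were counted in the same way. Among 13 receptors of the members' products, 6 had a gene-end peak with IL-4 alone, 3 in both lists and 4 in neither. The shares of all genes were 35.5%, 13.8% and 41.8%. The median log2 ratio within 50 kb was 1.07 for the receptors and 0.81 for all genes. Il1r1 and Il6ra, receptor chains for interleukin 1 and interleukin 6, had IL-4 peaks of 6 fragments (−log10 q 1.84 each) with no untreated peak. Ptger2, a prostaglandin E2 receptor gene, had an IL-4 peak of 8 fragments (fold 5.25) at one end and an untreated peak of 5 (fold 3.10) at the other, 16596 bp apart. Tnfrsf1a, the main TNF receptor gene, had an IL-4 peak past q 0.05 (fold 3.78, −log10 q 1.49) and, 1265 bp from it, an untreated peak that did not pass (fold 3.62, −log10 q 1.11). At Il1rap, the accessory chain of the interleukin-1 receptor, the peaks shared 10 bp, with folds of 4.65 in the untreated list and 2.79 with IL-4.

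Of 10 inhibitors and decoys 1 was IL-4-only, 2 were in both lists, 2 were untreated-only (Il10 and Il1rn) and 5 were in neither. In that order the shares of all genes were 35.5%, 13.8%, 8.93% and 41.8%. Tnfaip3, the A20 gene that restrains NF-κB, was the IL-4-only one, with 6 fragments. Zfp36, whose product destabilises Tnf mRNA, had 14 fragments with IL-4 and 9 without, but at folds of 3.34 and 4.25. Its −log10 q was 1.93 and 2.06. Dusp1, a phosphatase gene for MAP kinases, had an untreated peak past q 0.05 (7 fragments, fold 4.13), which lay within an IL-4 peak that did not pass (8 fragments, fold 2.97, −log10 q 1.02).

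Of 27 other inflammatory products 10 were IL-4-only, 4 in both, 0 untreated-only and 13 in neither. The shares of all genes were 35.5%, 13.8%, 8.93% and 41.8%. A further listed gene, Cxcl11, is annotated as a pseudogene in this assembly and was not counted. Beside Ltb, the IL-4 peaks past q 0.05 were at Ptges, the prostaglandin E synthase gene downstream of Ptgs2 (7 fragments, fold 4.82), Sod2, the mitochondrial superoxide dismutase gene (7 fragments, fold 4.87), Il27 and Icam1 (6 each). Il12a, the partner subunit gene of Il12b, had an untreated peak of 7 fragments and, 7232 bp from it, an IL-4 peak of 3. Of 7 sensors and processing enzymes 4 were IL-4-only (35.5% of all genes) and 3 in neither (41.8%). The strongest of their peaks was at Adam17, which encodes the protease that sheds TNF (8 fragments, −log10 q 3.40).

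The alternative activation list, the programme that IL-4 drives, stood at 12 IL-4-only, 3 in both, 4 untreated-only and 5 in neither of 24 genes. All genes stood at 35.5%, 13.8%, 8.93% and 41.8%. The median log2 ratio of this list was 0.77, with medians of 8 untreated and 15.5 IL-4 peaks. The 10 inflammatory genes taken singly, with peaks shared by neighbours counted for each, stood at 1.39, 3 and 12. Their 8 loci stood at 1.12, 5 and 14, and all protein-coding genes at 0.81, 7 and 14. Past q 0.05, 6 of 24 alternative activation genes were IL-4-only and none untreated-only, against 16.8% and 2.52% of all genes. Over all peaks, 12 of 24 and 5 of 10 genes of these programmes thus had a gene-end peak with IL-4 alone, against 35.5%. The difference between the lists was not tested.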

How the data were processed

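PHLPP1 CUT&Tag was read from 1 peak list per library, 2 libraries in all. Build mm10 and the tools MACS2 2.2.7.1, Bowtie 0.12.8 and DiffBind are listed, without role or order, in the submitters' processing notes. Control, duplicate handling and fragment size: not given in the sources used here. The deposited columns are a score (10 times the −log10 p, decimals dropped), a fold enrichment ratio over local background, and −log10 p and −log10 q, all the authors' own values per peak, used to describe and filter peaks. Fragments and background at a summit were solved from fold = (fragments + 1)/(background + 1) and a Poisson upper tail. A whole number within 0.01 of the −log10 p was found for 100% of entries. Intervals cover counting error only. Of intervals with several summits the one of highest −log10 q was kept. Gene ends came from RefSeq GRCm38.p6, the build of mm10, and strand from its promoter table. Peaks overlapped when they shared at least 1 bp.

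Named peaks were, per locus and list, the highest −log10 q, those with q of at most 0.05, those within 1 kb of a member's end and overlapping pairs. Weaker peaks beside them were named after their values were seen. The members and lists were chosen with earlier results of these data known. Python 3.11.15, pandas 2.3.3 and scipy 1.17.1 were used, and the functions were tested on simulated data. Alternatives were other windows, q of at most 0.05, at least 4 fragments, lists of equal length, other overlap rules, every listed summit and, added after the data were seen, Ccl4 by its last base alone. No test was possible with 1 library per group.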

Additional observations from a re-analysis of the deposited data

How the results depend on the processing

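No paired analysis was possible because each group has 1 library. The IL-4 share of member peaks was 70.0% and stayed within its counting interval with windows of 10 kb or 100 kb, with q of at most 0.05, with at least 4 fragments and with every listed summit (63.1% to 71.7%). It moved to 60.5% with lists of equal length, where each list gives as many peaks by construction. With at least 4 fragments it was 63.1% against 52.2% of all peaks. The median log2 ratio over loci ran from 0.66 (q of at most 0.05; all genes 0.58) to 1.16 (10 kb; all genes 0.68). The count of genes whose gene-end peak was seen with IL-4 alone, 5, became 2 within 500 bp (all genes 29.7%) and 2 at q of at most 0.05 (16.8%). It was 6 within 3 kb (34.9%), 5 with at least 4 fragments (29.6%) and 5 with lists of equal length (27.7%). With Ccl4 counted by its last base alone, added after the data were seen, it was 5 without a q threshold and 1 with q of at most 0.05. The share of IL-4 peaks overlapped by an untreated peak ran from 4.76% to 8.57%. Of 48 values for single loci under these alternatives, 39 kept the order of the lists and stayed within the locus's own interval, 3 moved out of it and 6 turned. Within 10 kb the IL-4 share at Il6 turned from 37.5% to 75.0% and at Ptgs2 from 60.9% to 42.9%. At q of at most 0.05 it was 100% at Il6 (1 of 1 peak), 33.3% at Nos2 and at Ptgs2 (1 of 3 each) and 0% at Ccl2 (0 of 1). The cause of these shifts was not tested. The loci hold 2 to 9 untreated peaks each, which limits every value given for a single locus.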
